A study of Papio anubis with 18 samples.

Results

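iPSC line M14939#3 was set against iPSC line 160-2, both induced pluripotent stem cell lines of the olive baboon, Papio anubis. The comparison used every library of these lines, 6 of the 12 in the series (8 of its 18 lane columns), chosen by the line named in the labels. M14939#3 had 3 libraries (numbers p16, p17 and p40) and 160-2 had 3 (p25, p65 and p84), where the number after the letter p is part of the library's name and is not defined in the labels. The other 6 libraries, 3 each of the embryonic stem cell (ESC) lines B4 (p16, p18, p25) and B15 (p21, p28, p43), gave the range against which each iPSC line was placed. No group carried a treatment or genetic change in the labels, and all 4 lines were grown on feeder cells in PluriSTEM Human ES/iPS Medium. The labels used here do not give the donor, the cells that were reprogrammed or the reprogramming method, so these cannot be told apart from the line. Nor do they say whether libraries of a line came from separate cultures, and p-values measure only the spread between these libraries, which may be technical.

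An iPSC line is made by forcing somatic cells to express pluripotency factors until their own pluripotency network takes over. Lines made in this way are known to differ from each other through the donor's genotype, through DNA methylation that was not fully reset and through changes acquired in culture, and single genes can be silent in a line and expressed in the next. ESC lines come from the embryo without reprogramming and are the usual yardstick for such differences.

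Genes are given by Ensembl identifier. The RefSeq table used (Panubis1.0, 39274 genes) holds an Ensembl identifier for 0 genes, so the 29475 identifiers could not be paired with symbols through it, and the functions of the genes, the markers of pluripotent cells and RNA of the feeder cells were not assessed. Total counts were 30413192 to 41215151 in the 160-2 libraries, 22685551 to 24517942 in the M14939#3 libraries and 12049925 to 62634176 in the ESC libraries. Each iPSC line had 1 library run on 2 lanes (160-2 replicate 1 and M14939#3 replicate 2) and 2 run on 1 lane, so this library set was balanced between them in number. Within B4, B15 and 160-2, however, the libraries run on 2 lanes had lower numbers after p than those run on 1 lane. In M14939#3, p17 was run on 2 lanes, and p16 and p40 on 1. The set and this number are thus largely confounded within lines. ESC B15 replicate 2 stood apart in its TMM factor (the edgeR scaling of library totals), at 0.779 against 0.949 to 1.08 in the other 11 libraries. Correlation of log2 CPM (counts scaled to a common total, with TMM and a prior count of 2) across genes, which are not independent replicates, ranged from 0.959 to 0.981 within 160-2 and from 0.964 to 0.972 within M14939#3. It ranged from 0.937 to 0.957 over the 9 pairs of a library of each iPSC line, which lay below every pair within an iPSC line. Pairs within an ESC line overlapped with these values, at 0.949 to 0.960 in B15 and 0.9525 to 0.971 in B4. Pairs between the ESC lines had 0.930 to 0.969.

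The lines differed in a broad set of genes, mostly by moderate folds, with a small tail of genes that were close to silent in 1 line. At an adjusted p under 0.05 (edgeR's quasi-likelihood test, Benjamini-Hochberg), 937 of 17106 tested genes (5.48%) were higher and 576 (3.37%) were lower in M14939#3, together 1513 or 8.84% (the called genes). The median log2 difference was 1.26 for the higher and -1.31 for the lower genes, against 0.01 over all tested genes. Of the higher genes, 238 differed by under 2-fold, 154 by at least 4-fold and 21 by at least 16-fold. Of the lower genes these counts were 149, 150 and 28. Differences of at least 2-fold were seen for 699 higher and 427 lower genes. The surplus of higher genes thus lay below 4-fold, and mostly between 2- and 4-fold. In 1456 of the 1513 the 3 libraries of one line did not overlap with the 3 of the other, which was also so for 30.5% of all tested genes. The test used the libraries this describes.

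**Figure D1:**
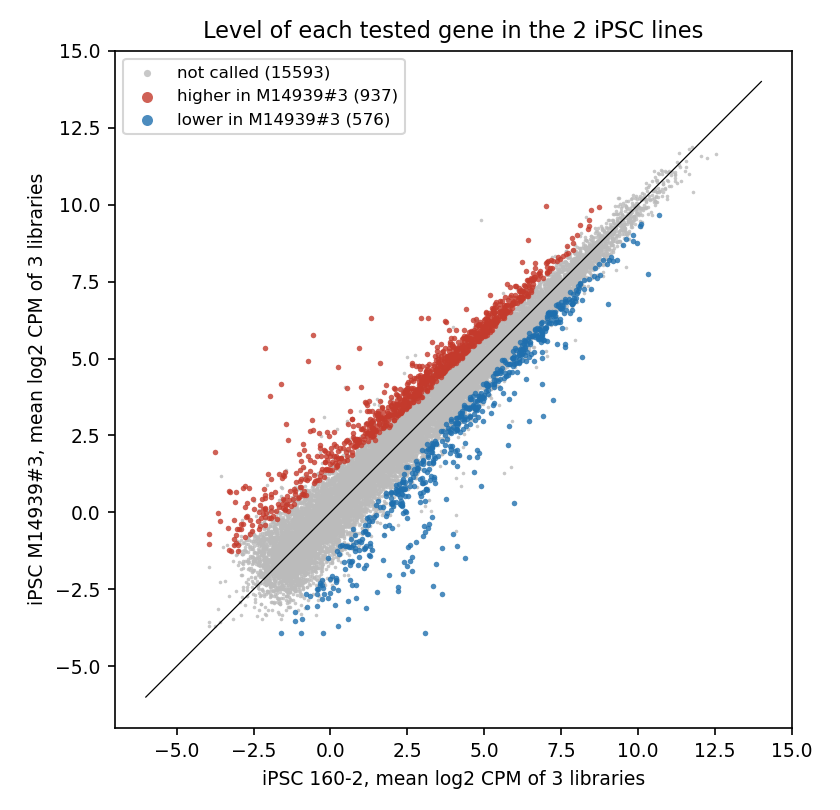
Mean log2 CPM of 3 libraries in iPSC 160-2 (x axis) and iPSC M14939#3 (y axis), 1 point per tested gene, with the diagonal of equal levels. The 937 genes called higher in M14939#3 (red) and the 576 called lower (blue) flank the other genes (grey) at all levels.

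Called genes were found at low and high levels. The tested genes were put into 4 bins of equal size by mean level. In the lowest bin 158 (3.70%) were called, and in the next bins, upwards, 367 (8.58%), 521 (12.2%) and 467 (10.9%). A gene with few counts must differ more to be called, so no trend in the size of the differences was read from these bins. Of 2463 genes with a mean of at least 100 CPM in either line, 252 (10.2%) were called, 124 of them higher in M14939#3, and 12 by at least 4-fold. These 12 abundant genes had 103 to 1285 CPM in the line with the higher mean, and 9 of them were lower in M14939#3. At the other end, 19 genes had a mean of at least 4 CPM in M14939#3 and under 1 CPM in each 160-2 library, and 17 had the reverse pattern. Of the 19, 16 were called, and of the reverse all 17.

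To see which line departed, each iPSC line was placed against the ESC libraries. A line counted as outside when all 3 of its libraries lay above the highest or below the lowest of the 6 ESC libraries. The ESC libraries ran from p16 to p43, which spans those of M14939#3 (p16 to p40) and p25 of 160-2, but not p65 and p84 of 160-2. How far this number bears on a departure of 160-2 from ESC was not tested. By this rule 160-2 alone was outside for 491 of the 1513 genes, M14939#3 alone for 297, both for 54 and neither for 671. The first 2 are 32.5% and 19.6% of the 1513 genes. Over all 17106 tested genes, called or not, 160-2 alone was outside for 8.54%, M14939#3 alone for 5.31% and neither for 85.2%. Genes that differ between the lines must lie apart, so a larger share than among all genes follows in part from the call.

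The side differed between the lines. Where 160-2 alone was outside it lay below the ESC range for 327 genes and above it for 164, while over all tested genes it lay below for 4.32% and above for 4.21%. By direction of the call these genes split in the same numbers, 327 higher and 164 lower in M14939#3. Among all called genes 937 were higher and 576 lower. The lean of 160-2 to below the range is thus not separate from the surplus of higher calls. Where M14939#3 alone was outside it lay below for 149 and above for 148 (2.66% and 2.65% of all tested genes). In plain CPM, without TMM and the prior count, the M14939#3 genes split into 110 below and 190 above, and those of 160-2 into 277 and 168. With upper quartile normalization, which also changed the call, M14939#3 had 158 below and 122 above, and 160-2 had 305 and 193. The even split of M14939#3 was seen in neither. The distances were small for most genes: the median distance of the nearest library from the ESC range was 0.22 on the log2 scale for genes with 160-2 below and 0.28 with 160-2 above, and 0.35 and 0.25 with M14939#3 below and above. With a distance of at least 1 required, the lines came out alike in number, with 48 genes for 160-2 alone (20 below, 28 above) and 50 for M14939#3 alone (27 below, 23 above). The larger count of 160-2, and its lean towards genes below the range, thus lay in genes within 2-fold of an ESC library.

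**Figure D2:**
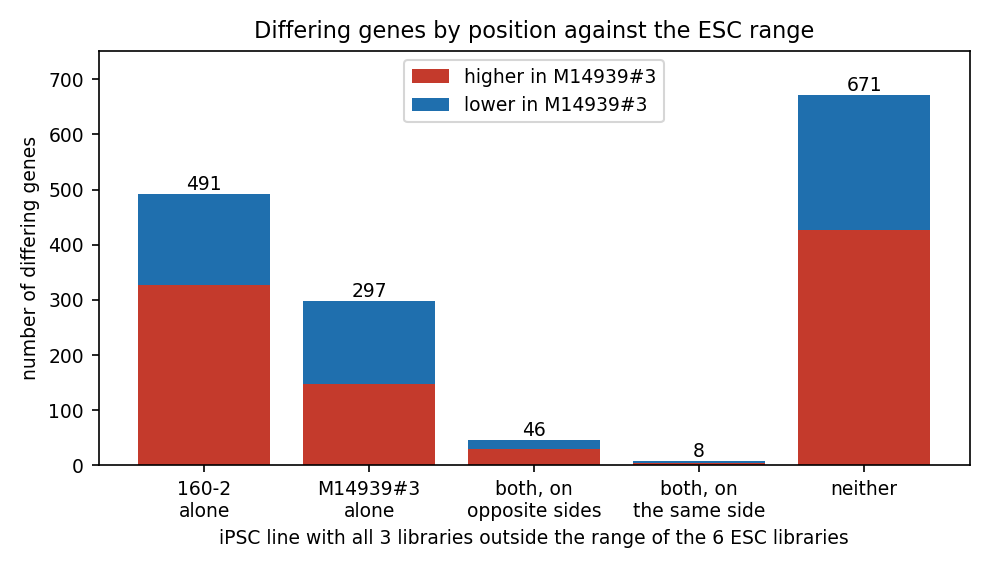
Number of the 1513 differing genes (y axis) by which iPSC line had all 3 libraries outside the range of the 6 ESC libraries (x axis), split by direction. The bar for 160-2 alone reaches 491, of which 327 genes are higher in M14939#3, and the bar for M14939#3 alone reaches 297, with 148 higher.

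Among the genes for which 160-2 departed upwards, ENSPANG00000029232 had 7.27, 13.1 and 6.31 CPM in replicates 1 to 3 of 160-2 and 0 counts in each M14939#3 library, which allows up to 0.0427 CPM over the 3. The ESC libraries had 0 to 0.106 CPM, with a median of 0.0734. The gene was thus detected at several CPM in the 160-2 libraries and hardly or not at all in the other 9. From the counts and library totals pooled over each line, and against a floor of 3 counts over the M14939#3 libraries, it was at least 214.5-fold higher in 160-2 (edgeR adjusted p = 2.36e-05). ENSPANG00000017685 had 2.35, 8.78 and 4.44 CPM in 160-2, 0.391, 0.0408 and 0.0441 CPM in M14939#3, and 0 to 0.352 CPM (median 0.121) in ESC. All 3 of the 160-2 libraries lay above the other 9, with a log2 difference, M14939#3 minus 160-2, of -5.06 (SE 0.84, edgeR adjusted p = 0.00387). Leaving out 1 library at a time, the log2 difference ranged from -4.47 (without 160-2 replicate 2) to -6.76 (without M14939#3 replicate 1, the highest of that line).

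Among the genes for which 160-2 departed downwards, ENSPANG00000001216 had 0.232, 0.0728 and 0.230 CPM in 160-2, against 33.3, 36.5 and 62.2 CPM in M14939#3 and 18.97 to 51.0 CPM (median 35.5) in ESC. It was close to silent in 160-2 and at ESC level in M14939#3, with a log2 difference of 7.86 between the iPSC lines (SE 0.43, edgeR adjusted p = 1.72e-07). This gene was added after its values were seen, because 1 library of M14939#3 lies above the ESC range, and the naming rule asked for all 3 within it. Of the genes lower in 160-2, 1 met the rule in full. ENSPANG00000002242 had 0.361, 0.558 and 0.921 CPM in 160-2, 7.17, 8.85 and 4.23 CPM in M14939#3 and 2.52 to 8.59 CPM (median 5.39) in ESC. Its 160-2 libraries lay below all others, with a log2 difference of 3.29 (SE 0.53, edgeR adjusted p = 0.00279).

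M14939#3 departed upwards for ENSPANG00000030272, which had 26.6, 25.9 and 9.79 CPM in its replicates 1 to 3, 0.284, 0.315 and 0.197 CPM in 160-2 and 0.083 to 0.810 CPM (median 0.178) in ESC. The 3 libraries of M14939#3 stood far above the other 9, although replicate 3 was the lowest of the 3, and the log2 difference was 6.18 (SE 0.63, edgeR adjusted p = 7.54e-05). ENSPANG00000008941 had 3.78, 9.05 and 4.41 CPM in M14939#3, 0.619, 0.146 and 0.329 CPM in 160-2 and 0.0415 to 1.17 CPM (median 0.130) in ESC. The upper end of its ESC range came from a single library, B15 replicate 1. The log2 difference was 3.97 (SE 0.72, edgeR adjusted p = 0.00603).

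In the other direction, ENSPANG00000032954 had 0.826, 2.00 and 1.499 CPM in M14939#3, 15.1, 10.7 and 15.03 CPM in 160-2 and 10.5 to 32.2 CPM (median 23.4) in ESC. Each M14939#3 library lay below each of the other 9, and the log2 difference was -3.33 (SE 0.30, edgeR adjusted p = 1.83e-05). ENSPANG00000035748 varied within M14939#3, with 0.174, 1.92 and 0.0441 CPM, while 160-2 had 20.8, 21.01 and 21.1 CPM and ESC 5.43 to 23.6 CPM (median 11.8). Even its highest M14939#3 library, replicate 2, stayed below the lowest ESC library, and the log2 difference was -4.97 (SE 0.84, edgeR adjusted p = 0.00777). Without that library the log2 difference was -7.80, and without M14939#3 replicate 3, the lowest, it was -4.32.

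For 46 of the 1513 genes the lines lay on opposite sides of the ESC range, 30 with M14939#3 above and 16 with it below (0.286% of all tested genes lay so). ENSPANG00000031605 had 15.5, 11.5 and 10.3 CPM in 160-2, 1.09 to 1.94 CPM (median 1.45) in ESC and 0.130, 0.0816 and 0.0882 CPM in M14939#3. ESC libraries thus lay between the lines, which differed by -6.95 on the log2 scale (SE 0.45, edgeR adjusted p = 6.3e-07). ENSPANG00000034295 had 7.52, 5.14 and 6.61 CPM in M14939#3, 0.970 to 2.41 CPM (median 1.95) in ESC and 0.670, 1.09 and 0.888 CPM in 160-2. Here 160-2 lay below the range by only 0.12 on the log2 scale and M14939#3 above it by 0.90, with a log2 difference of 2.79 (SE 0.33, edgeR adjusted p = 2.21e-04). Both genes were picked after their values were seen, as the largest difference in each direction among those with a mean of at least 4 CPM in the higher line. For 8 genes both lines lay on the same side, 3 above and 5 below (0.707% of all tested genes lay so).

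**Figure D3:**
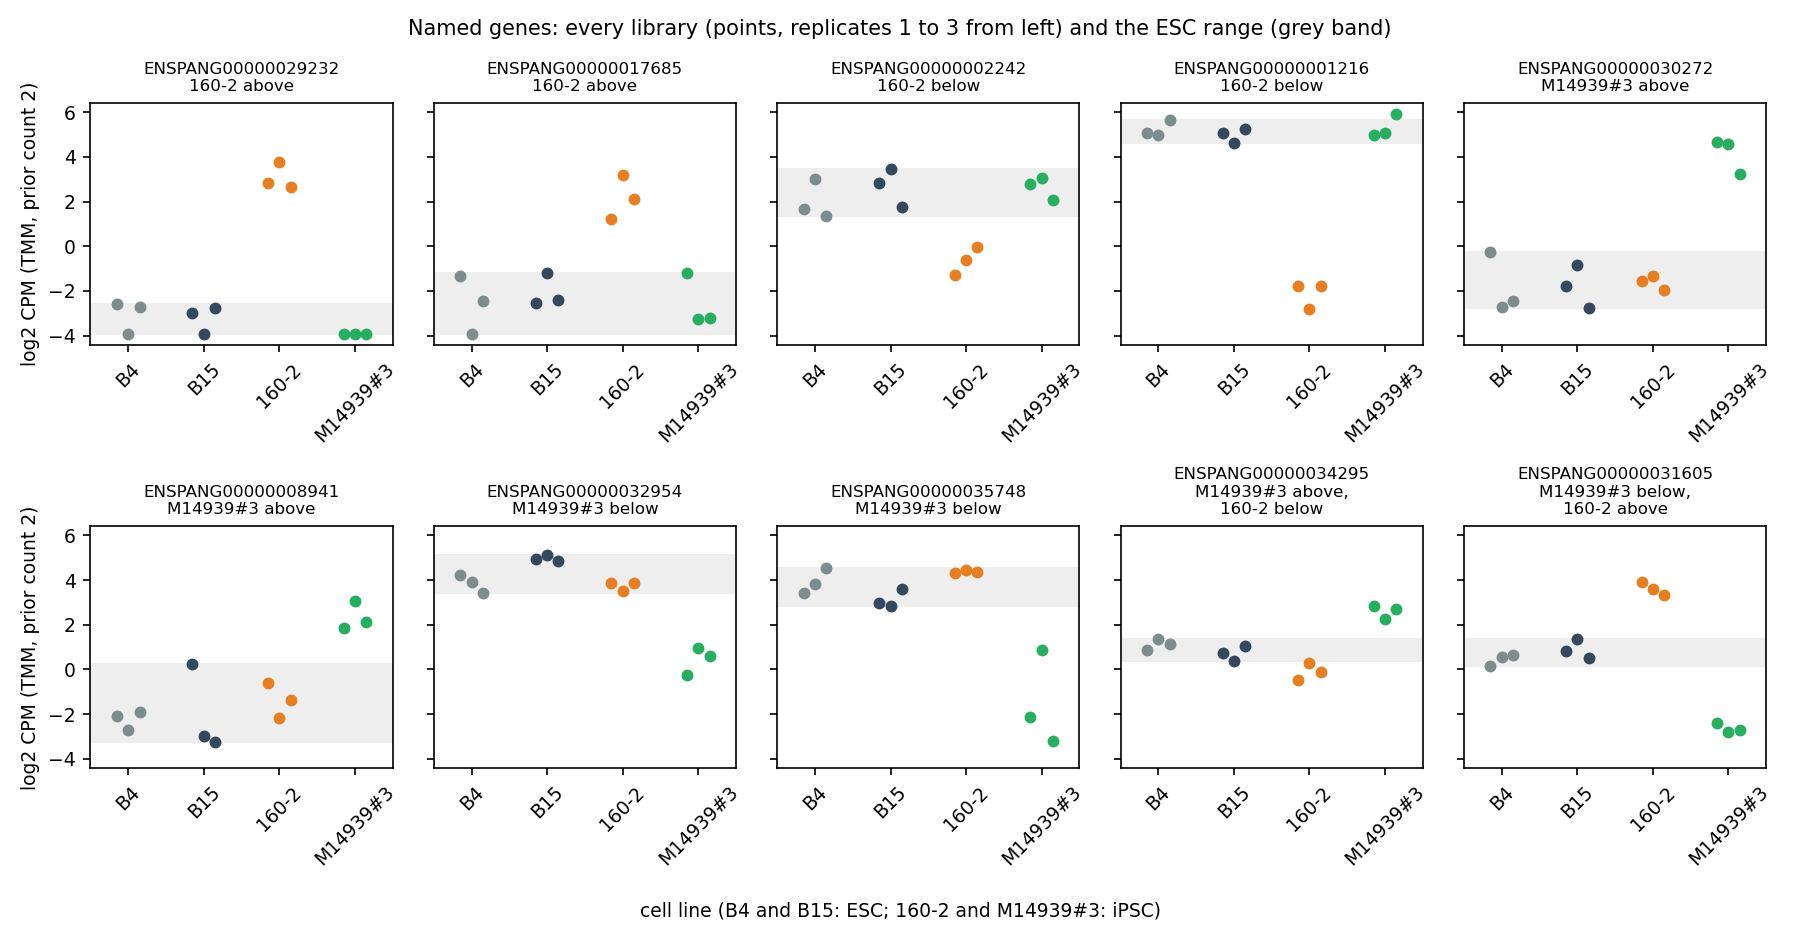
Log2 CPM (y axis) of the 10 named genes in each of the 12 libraries (points, replicates 1 to 3 from left to right) by cell line (x axis), with the range of the 6 ESC libraries as a grey band. In the panels headed 160-2 above or below, the 3 orange points of 160-2 lie outside the band, and in those headed M14939#3 the 3 green points do.

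The 7 genes named by the rule were chosen for lying at least 1 on the log2 scale outside the ESC range in 1 line and inside it in the other, and the 3 added ones for their size, so their levels beside ESC are a description. In the same fit, 160-2 differed from the mean of the ESC lines by -7.73 (SE 0.42) for ENSPANG00000001216, and M14939#3 by 0.13 (SE 0.26). For ENSPANG00000030272, M14939#3 differed from ESC by 6.39 (SE 0.50) and 160-2 by 0.21 (SE 0.62). For ENSPANG00000032954, M14939#3 differed from ESC by -3.85 (SE 0.29) and 160-2 by -0.52 (SE 0.24).

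Genes for which neither line was outside formed the largest of these groups, with 671 (427 higher and 244 lower in M14939#3), against 85.2% of all tested genes. In 24 of them all 6 iPSC libraries lay inside the ESC range. In 137 only M14939#3 lay wholly inside, and in 104 only 160-2 did. In 406 each line had at least 1 library beyond the range. This split was not counted over all tested genes. Called genes must lie apart between the lines, so the small number with all 6 libraries inside follows in part from the call. The ESC range of the 671 genes had a median width of 1.34 on the log2 scale. The median width was 1.05 for the genes with 1 line outside and 1.26 for all tested genes. Of the 671, 16 also differed between the 2 ESC lines in the edgeR test (adjusted p under 0.05), which 63 of all 17106 tested genes did (0.368%). The difference between the iPSC lines had the sign of B15 minus B4 for 558 of the 671 (83.2%), and for 64.6% of all tested genes. These signs were taken from the mean log2 CPM of each line. The iPSC and ESC means share no library, but the ESC range helped to pick the 671 genes, so the 83.2% is a description. The edgeR tests of the 2 iPSC lines and of the 2 ESC lines share the estimate of the spread.

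The libraries run on 2 lanes gave a look at the differences in libraries that a call had not used, a check added after the data were seen. The libraries run on 1 lane were 2 per iPSC line (p16 and p40 of M14939#3, p65 and p84 of 160-2) and 1 per ESC line. The spread in a fit of these libraries came from the iPSC lines alone. With these alone (18199 genes tested), 1122 genes (6.17%) were higher and 740 (4.07%) lower in M14939#3 by edgeR. In the pair run on 2 lanes, M14939#3 replicate 2 (p17) and 160-2 replicate 1 (p25), 990 of the 1122 (88.2%) were again higher in M14939#3, against 47.2% of all tested genes, and 406 by at least 2-fold. Of the 740, 703 (95%) were again lower, against 52.6% of all tested genes, and 347 by at least 2-fold. Differences of at least 2-fold in the opposite direction were seen for 11 and 5 genes. The median log2 difference in this pair was 0.75 for the higher and -0.93 for the lower genes, against 1.36 and -1.23 in the libraries that made the call. A single pair carries no replicate check of its own, and its numbers after p differ from those of the libraries that made the call.

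**Figure D4:**
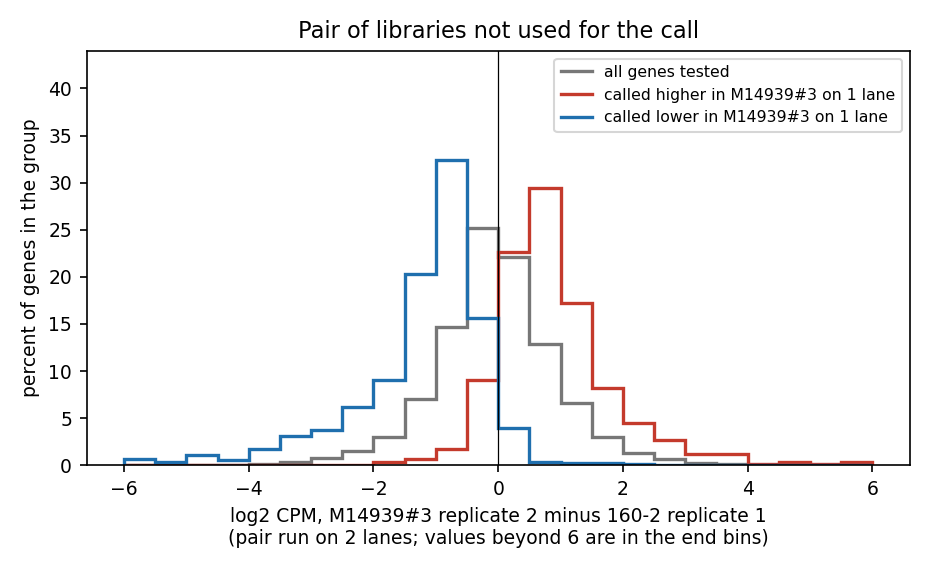
Percent of genes (y axis) by log2 difference between M14939#3 replicate 2 and 160-2 replicate 1 (x axis, bins of 0.5), for genes called higher (red) or lower (blue) in M14939#3 in the libraries run on 1 lane and for all tested genes (grey). The red outline lies mostly right of 0 (88.2% of genes) and the blue mostly left of it (95%).

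All 10 named genes had the same direction in that pair as in the full comparison. For ENSPANG00000029232, M14939#3 replicate 2 held 0 counts and 160-2 replicate 1 held 282. The log2 difference in the pair was -4.50 for ENSPANG00000017685, 6.87 for ENSPANG00000001216 and 4.32 for ENSPANG00000002242. It was 6.15 for ENSPANG00000030272, 3.67 for ENSPANG00000008941, -2.94 for ENSPANG00000032954 and -3.45 for ENSPANG00000035748, which differed by -7.61 in the libraries run on 1 lane. The pair was part of the comparison that chose these genes, so this is no independent test.

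The number after p moved with the line, at 25, 65 and 84 in 160-2 and 16, 17 and 40 in M14939#3. With log2 of this number as a covariate beside the library set, 59 genes (29 higher, 30 lower) passed the edgeR test in place of 1513. Of the 59, 54 were among the 1513. The library set moves with this number within most lines, so the 2 terms overlap. Of these 59, 160-2 alone was outside the ESC range for 17 and M14939#3 alone for 20. For the 1513 genes the median absolute log2 difference was 1.19 in this fit against 1.28 without the covariate, the median SE was 0.47 against 0.30, and none had the opposite sign. For most of these genes the line and this number therefore cannot be told apart at the threshold used. Of the named genes, the call was lost with the covariate for ENSPANG00000017685 (edgeR adjusted p = 0.16), ENSPANG00000002242 (0.0983), ENSPANG00000008941 (0.212) and ENSPANG00000035748 (0.201). Over 23 alternatives these were the highest adjusted p of each gene. The lowest were 8.44e-16, 2.16e-12, 5.25e-12 and 1.48e-31 in the same order, all from the edgeR fit with no filter on low counts. The log2 differences in the unfiltered fit were close to the reported ones, at -5.09, 3.28, 3.95 and -4.99. Its lower adjusted p thus do not come with larger differences and do not offset the lost calls. In the reported edgeR fit the adjusted p were 0.00387, 0.00279, 0.00603 and 0.00777. With the covariate the log2 difference was -5.99 for ENSPANG00000017685 (-5.06 without it), 3.83 for ENSPANG00000002242 (3.29), 3.63 for ENSPANG00000008941 (3.97) and -4.77 for ENSPANG00000035748 (-4.97). The call was kept for the other 6, with edgeR adjusted p from 1.21e-05 for ENSPANG00000001216 to 0.0416 for ENSPANG00000034295.

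The counts also rested on single libraries. Leaving out a library of 160-2 turned the 1513 into 751 (replicate 1), 317 (replicate 2) or 505 (replicate 3). Leaving out M14939#3 replicate 1 or 2 gave 466 or 605, but leaving out its replicate 3 gave 1454. ESC libraries are not compared in this count but enter its filter, its scaling and its spread. When B15 replicate 1 was dropped 2471 genes passed, and 1287 to 1433 without B15 replicate 3 or any 1 library of B4. The 491 genes with 160-2 alone outside became 818 when ESC B15 replicate 1 was dropped, 123 and 227 for replicates 2 and 3 of 160-2, and 163 and 190 for replicates 1 and 2 of M14939#3. The 297 genes with M14939#3 alone outside became 125, 84 and 122 when replicate 1, 2 or 3 of 160-2 was dropped, 138 without M14939#3 replicate 1 and 510 without M14939#3 replicate 3. The order of the lines turned without M14939#3 replicate 2 (190 genes for 160-2, 201 for M14939#3) and without M14939#3 replicate 3 (394 and 510), and without ESC B15 replicate 3 the counts were 417 and 403. Without ESC B15 replicate 2, the library with the low TMM factor, the 3 counts were 2111, 637 and 392. Each of the 10 named genes kept its call and direction without any 1 of the 12 libraries.

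**Figure D5:**
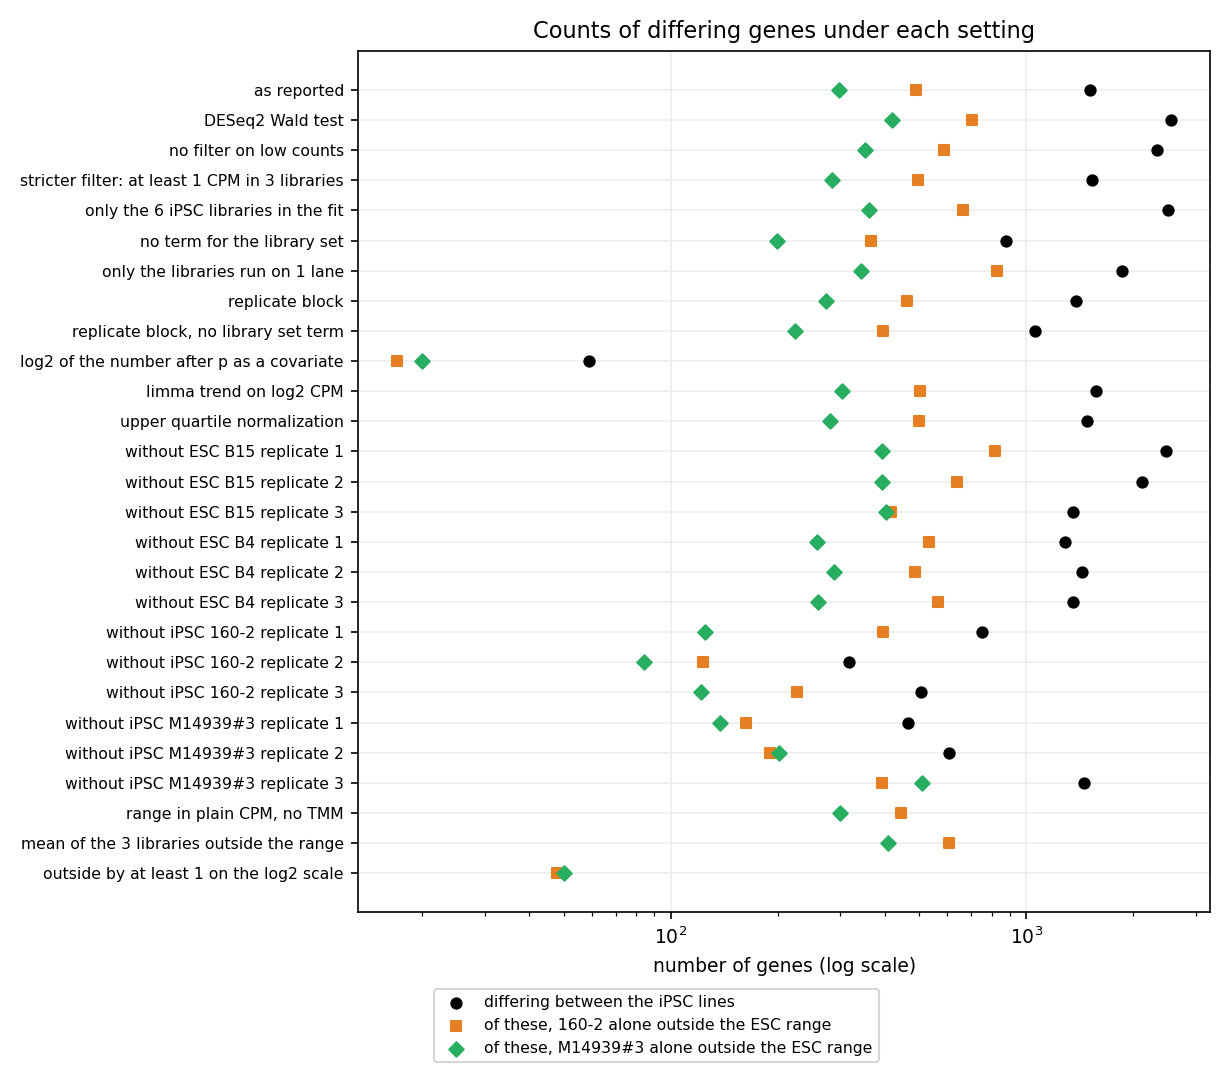
Number of genes (x axis, log scale) that differed between the iPSC lines (circles), and of these the genes with 160-2 alone (squares) or M14939#3 alone (diamonds) outside the ESC range, under each setting (y axis). The square lies right of the diamond as reported (491 and 297), but not without M14939#3 replicate 2 or 3, with the covariate, or with a distance of at least 1 required.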

How the data were processed

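The authors deposited raw read counts per Ensembl gene, 1 column per library and lane. The submitters' processing notes name featureCounts and edgeR. Aligner, genome build and annotation: not given in the sources used here. Per the labels' protocols libraries were made with SMART-Seq v4 and Nextera XT, which do not mark strand, so overlapping genes on opposite strands cannot be told apart, nor near-identical copies.

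Columns were matched to samples by description, and lanes of a library were summed. Tests used edgeR 4.0.16 (R 4.3.3) with TMM, filterByExpr by line, a robust quasi-likelihood fit of all 12 libraries with line and library set (1 or 2 lanes) as terms (7 residual degrees of freedom) and Benjamini-Hochberg adjustment over 17106 genes. Log2 differences are edgeR's shrunken values, and an SE is the size of the unshrunken difference over the root of its F statistic. The limit from 0 counts covers counting error alone, as PCR copies are not independent. The code was tested on simulated data.

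Named genes had adjusted p under 0.05, no overlap between the lines, at least 4 CPM in the mean of the higher line, 1 line outside the ESC range by at least 1 (log2) and the other inside, and the first 2 by distance were taken per line and side. The rule, groups and alternatives were chosen with earlier results of these data known. Alternatives were DESeq2 1.42.0, limma 3.58.1, other filters, scalings, terms and definitions of the range, and leaving out each library.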

Additional observations from a re-analysis of the deposited data

How the results depend on the processing

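The 1513 differing genes became 2555 by DESeq2, 2339 without a filter on low counts, 2512 with only the 6 iPSC libraries in the fit, 877 with no term for the library set and 59 with the number after p as a covariate. The cause was not tested. The 491 genes with 160-2 alone outside the ESC range became 827 in the libraries run on 1 lane, where fewer libraries set the range, 17 with that covariate and 48 with a distance of at least 1. The 297 genes with M14939#3 alone outside became 20 and 50 in the last 2 of these. Leaving out single libraries gave 317 to 2471, 123 to 818 and 84 to 510. Of 75 recomputed counts, 49 were within 1.5 times of those reported. None of the 1513 genes changed sign in any alternative fit in which it was tested. With the replicate number as a block, 1376 genes differed, 462 with 160-2 alone and 274 with M14939#3 alone outside, or 1059, 396 and 224 without the library set term. Replicate numbers did not pair the iPSC libraries (deviations of same-numbered libraries correlated at -0.0957, -0.117 and 0.218). With 3 libraries per line, 33.1% of tested genes had a 95% interval of the difference wholly between -1 and 1 (log2), and for the other genes the interval reached beyond a 2-fold difference.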
